A study of Mus musculus with 2 samples.

Results

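The cells described here are 68 pericytes of an intestinal adenoma culture that was grown without RSPO1-Fc. They were 68 of 3143 control cells (2.16%, exact 95% interval 1.68 to 2.73%) and of 6122 cells in both libraries of the study. A control barcode counted as a pericyte when it held at least 2000 unique molecular identifiers (UMIs), at most 20% of them from mitochondrial genes, and at least 5 UMIs of Rgs5, Des, Myh11 and Pdgfrb together. That sum also had to exceed the sum of 4 epithelial genes (Epcam, Krt8, Krt18, Krt19), 5 fibroblast genes (Dcn, Lum, Pdgfra, Col1a1, Col3a1), 4 endothelial genes (Pecam1, Cdh5, Kdr, Plvap) and 4 macrophage genes (C1qa, C1qb, C1qc, Csf1r). The cells were therefore picked by their measured expression, and every value below describes how cells chosen in this way looked.

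Pericytes are mural cells that sit on capillaries and small venules, inside the basement membrane that they share with the endothelium. Endothelial PDGF-B draws them to the vessel wall through the receptor encoded by Pdgfrb, and Notch3 signalling maintains them. They form a continuum with vascular smooth muscle cells, which hold more of the contractile proteins, and in the gut they lie among fibroblasts, subepithelial myofibroblasts and visceral smooth muscle that share several of their markers.

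The study profiled cultures of intestinal adenoma from ApcMin/+ mice on the C57BL/6 background, aged 17 weeks, with 3′ droplet RNA sequencing. Both cultures carried the Min allele, which truncates the Wnt antagonist Apc. Treatment was with RSPO1-Fc, in which R-spondin 1, an enhancer of Wnt signalling, is joined to an antibody Fc part, at 10 μg/ml per the treatment protocol (another label gives the same number in mg/ml), while the control culture had none. Each condition was 1 library, and the number of mice behind it is not given in the sources used here. No p-value is given for this reason, and intervals are 95% intervals that cover counting error only.

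The RSPO1-Fc library stood apart from the control in the gates that its cells met. All 2979 of its cells fell in the epithelial gate, and 0 of 2979 met the pericyte rule, which allows a share of up to 0.101% when 3 cells are taken as the limit of a count of 0. The highest marker sum of an RSPO1-Fc cell was 1 UMI, and 12 cells had any. Rgs5 had 1 UMI, Des 2, Myh11 4 and Pdgfrb 5 UMIs over all RSPO1-Fc cells. The control culture, also labelled an organoid culture, held 1935 cells in the epithelial gate, 316 in the macrophage gate, 164 in the fibroblast gate and 120 in the endothelial gate beside the pericytes, and 540 cells met no gate. The libraries shared 0 cell barcodes. With 1 library per condition, treatment and library cannot be told apart, so the comparisons below are between pericytes and other cells of the control library.

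The pericytes held between 2182 and 45076 UMIs per cell with a median of 8825.5, against a median of 18951 in the other 3075 control cells. The number of genes detected per pericyte was 1120 at the lowest, 3074 at the median and 7602 at the highest. Mitochondrial genes gave 2.61 to 14.1% of pericyte UMIs with a median of 5.14%, against a median of 5.55% in the other control cells. Summed over cells, the pericytes gave 710724 UMIs, which sets the precision of every level below. Levels are in CPM, the UMIs of a gene summed over a class and scaled to the total UMIs of that class, so that all classes have the same total. They are compared for a gene between classes and not between genes.

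The markers of the rule gave sums of 22 UMIs at the lowest, 128.5 at the median and 625 at the highest in the 68 cells. The fibroblast genes of the rule were present in each of them as well, with sums of 7, 49 and 400 UMIs at the lowest, the median and the highest. The margin between both sums decided membership. The 4 pericytes nearest to the border led by 1, 1, 3 and 4 UMIs, while the 4 nearest cells outside with 5 or more marker UMIs, all in the fibroblast gate, trailed by 9, 14, 23 and 27 UMIs. Of 102 control cells outside the class with 5 or more marker UMIs, 76 were in the fibroblast gate and 26 in the epithelial gate.

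The fibroblast gate itself held cells of a different kind on this measure. There, 26 of 164 cells had 20 or more marker UMIs, and 22 of those 26 had no UMI of Pdgfra, the PDGF-A receptor that marks gut fibroblasts. Pdgfra was found in 2 of 68 pericytes and in 129 of 164 cells of the fibroblast gate. Levels in this gate therefore include cells with high pericyte markers, and they are also given for the 88 cells with under 5 marker UMIs, called marker-poor fibroblasts here.

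**Figure D1:**
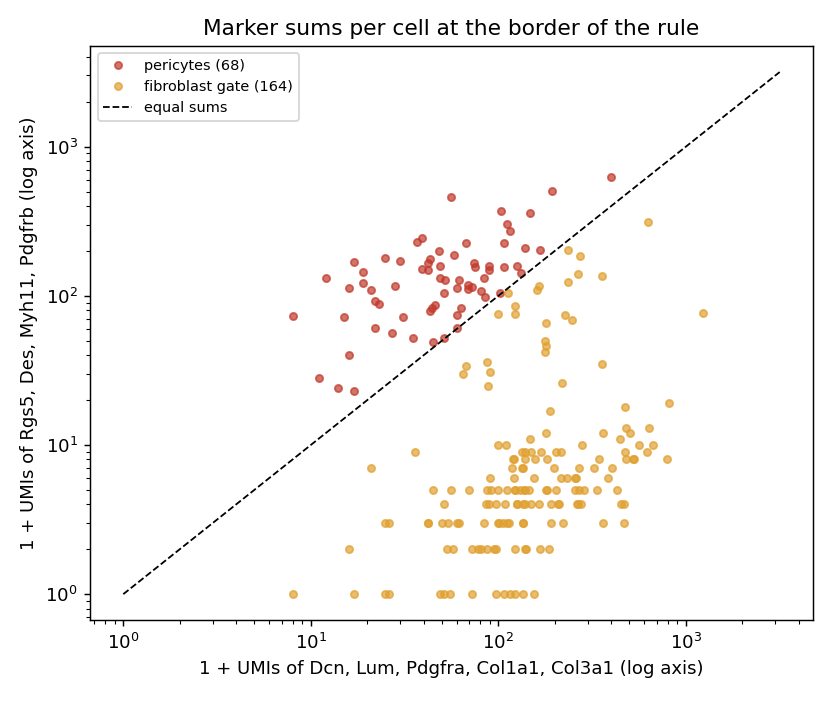
Each point is 1 control cell, with 1 plus the summed UMIs of the 5 fibroblast genes on the x axis and 1 plus those of the 4 pericyte markers on the y axis (both log axes). The 68 pericytes lie above the dashed line of equal sums, and 26 of the 164 cells of the fibroblast gate have 20 or more marker UMIs and lie above most of that gate.

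Many genes outside the rule also differed in level between the pericytes and the other control cells. Of 7805 genes with at least 20 CPM in either class, 1400 (17.9%) were at least 2-fold higher and 1513 (19.4%) at least 2-fold lower in pericytes than in the other control cells. The epithelial gate gave 66695889 of the 76838764 UMIs of the other control cells, so this contrast is mostly with epithelium. All 4 rule markers stood among the higher ones by construction. Against the fibroblast gate, 622 of 7106 genes (8.75%) were at least 2-fold higher and 707 (9.95%) at least 2-fold lower. Against marker-poor fibroblasts the shares were 11.1% and 12.1% of 7258 genes. These shares over all genes tested are the ones to set beside each count of list members below.

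Gate genes of epithelium and endothelium came largely from 1 barcode among the 68. The deepest pericyte, with 45076 UMIs, held 113 UMIs of the epithelial gate and 112 of the endothelial gate. No other pericyte had more than 5 UMIs of the epithelial gate or 2 of the endothelial gate, and the macrophage gate sum was at most 1. The deepest cell and the cell with 5 epithelial UMIs are called the mixed cells here. The macrophage genes C1qa, C1qc and Csf1r were at 0 UMIs, and the other macrophage and immune markers summed to 219 CPM in pericytes and 29699 CPM in the macrophage gate, of which S100a8 gave 122 CPM in pericytes with 85 of its 87 UMIs in 2 cells. All 10 skeletal muscle markers and 5 of 6 mesothelial markers were at 0 UMIs. Of 8 enteric glia markers, 2 were at least 2-fold higher than in the other control cells (Fabp7 and Ngfr) and 1 lower, with a sum of 283 CPM in pericytes and 33.6 CPM in the others, while Sox10, S100b and Gfap were at 0 UMIs. Of 5 markers of interstitial cells of Cajal, Ano1 and Etv1 were higher and 0 lower, with a sum of 158 CPM in pericytes and 30.3 CPM in the others, and the defining gene Kit was at 7.04 CPM. The 11 markers of telocytes and subepithelial myofibroblasts summed to 4422 CPM in pericytes and 3861 CPM in the fibroblast gate, and 2 of them were higher and 7 lower than in that gate. The 2 higher ones were Acta2, which alone gave 3477 CPM of that sum, and Myh11. As a marker of the rule, Myh11 was high by the choice of cells. Of 12 further fibroblast markers, 4 were at 0 UMIs, and the list summed to 2656 CPM in pericytes and 6377 CPM in the fibroblast gate. Fabp4, an adipocyte and capillary endothelial marker, was at 387 CPM in pericytes and 931 CPM in the endothelial gate, and of 6 adipocyte markers it was higher than in the other control cells together with Pparg and Lpl, while Adipoq, Plin1 and Cd36 were at 0 UMIs. Of 12 further endothelial markers, 4 were higher and 2 lower than in the other control cells (4 and 5 without the mixed cells), with a sum of 749 CPM in pericytes (569 CPM without the mixed cells) and 5746 CPM in the endothelial gate. The part of these other cell types in the results was not tested. Some counts and levels below are also given without the 2 mixed cells.

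Rgs5, a brake on G protein signalling and the best known pericyte transcript, lies at chr1:169655501-169695813 (GRCm38, plus strand). It had 0 UMIs per 10000 at the lowest, 105 at the median and 285 at the highest of the 68 pericytes, and 67 of them held at least 1 UMI. Its level was 11978 CPM (11725 to 12235) in pericytes, 748 CPM in the fibroblast gate, 2.40 CPM in marker-poor fibroblasts, 2.12 CPM in the endothelial gate and 29.7 CPM over all other control cells. A UMI of Rgs5 was found in 98.5% of pericytes and in 1.58% of macrophages, which should lack it and had a higher median depth of 10685.5 UMIs. Rgs5 is a marker of the rule and of the limit that defines marker-poor fibroblasts, so these differences were part of the choice of cells.

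The other rule markers were less even across cells. Pdgfrb, the PDGF-B receptor, had 0, 11.3 and 44.0 UMIs per 10000 at the lowest, the median and the highest, and 1090 CPM in pericytes against 10.6 CPM in the other control cells. Des (chr1:75360329-75368579, plus strand), the intermediate filament protein desmin, had 0, 6.32 and 24.7 UMIs per 10000, and 704 CPM in pericytes against 3.79 CPM in the others. Myh11 (chr16:14194535-14291372, minus strand), the myosin heavy chain of smooth muscle, had 0, 2.75 and 86.7 UMIs per 10000. Its level was 770 CPM in pericytes against 4.20 CPM in the others. The top of its range lay far above its median, and 12 cells with 10 or more UMIs held 70.9% of its 547 UMIs.

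A pair of the 68 cells met the rule through Myh11 almost alone, a feature that was noticed after the values were seen. One had 73 UMIs of Myh11 and 0 of Rgs5, Des, Pdgfrb and Notch3, and the other had 45 of Myh11, 1 of Rgs5, 2 of Pdgfrb and 0 of Des and Notch3. They also held 62 and 57 UMIs of Acta2, 20 and 21 of Actg2 and 11 and 5 of Cnn1. The label pericyte thus rests on 1 marker in these cells. The next cell in order of Rgs5 had 10 UMIs of it, 9 of Des and 8 of Myh11, none of Pdgfrb and Notch3, and 57 of Acta2 and 18 of Actg2. In all, 4 of the 68 pericytes had no UMI of Notch3, Abcc9, Kcnj8 and Higd1b, among them this cell and both Myh11 cells, which goes against the label for these 4.

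Mural identity genes beyond the rule were high in number as well, as a description of cells chosen by related genes. Of 24 such genes, 22 reached 20 CPM, and all 22 were at least 2-fold higher in pericytes than in the other control cells, beside 17.9% of all genes tested. The median log2 ratio was 6.21 over the 24, beside −0.13 over all genes tested. Against the fibroblast gate 19 of 22 were higher and 1 lower, Foxf1, a mesenchymal factor of the gut, at 104 CPM in pericytes and 239 CPM in the fibroblast gate. Tbx18, a mural transcription factor in several mouse organs, was at 0 UMIs, and the aminopeptidase gene Anpep was at 18.3 CPM.

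Notch3 (chr17:32120820-32166852, minus strand), the Notch receptor of mural cells, had 0, 5.88 and 17.9 UMIs per 10000 at the lowest, the median and the highest. Its level was 618 CPM in pericytes, 51.8 CPM in the fibroblast gate, 0 CPM in marker-poor fibroblasts and 2.82 CPM over all others, a fold of 219 (185 to 259) over those. Cspg4 (chr9:56865033-56899870, plus strand), which encodes the proteoglycan NG2, was at 380 CPM in pericytes and 1.98 CPM in the others. Higd1b (chr11:102835849-102838040, plus strand), a member of the HIG1 domain family, was at 369 CPM in pericytes and 0.403 CPM in the others, and it was found in 51 of 68 pericytes and 0.633% of macrophages. It also had the highest ratio to the fibroblast gate among the genes ranked, 31.0-fold (20.6 to 48.8).

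Ndufa4l2, a mitochondrial protein that low oxygen induces, was at 1037 CPM in pericytes, 95.5 CPM in the fibroblast gate and 3.74 CPM in the others. Cox4i2, an alternative subunit of cytochrome c oxidase, was at 440, 45.1 and 1.94 CPM in the same classes. The transcription factor Ebf1 was at 1235 CPM in pericytes, 141 CPM in the fibroblast gate, 0 CPM in marker-poor fibroblasts and 179 CPM in the endothelial gate. Mcam, an adhesion molecule of vessel walls, did not separate the pericytes from the endothelium, with 447 CPM in pericytes and 484 CPM in the endothelial gate. Vtn, which encodes vitronectin, was at 98.5 CPM in pericytes and 0.156 CPM in the others, although only 39.7% of pericytes held a UMI.

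**Figure D2:**
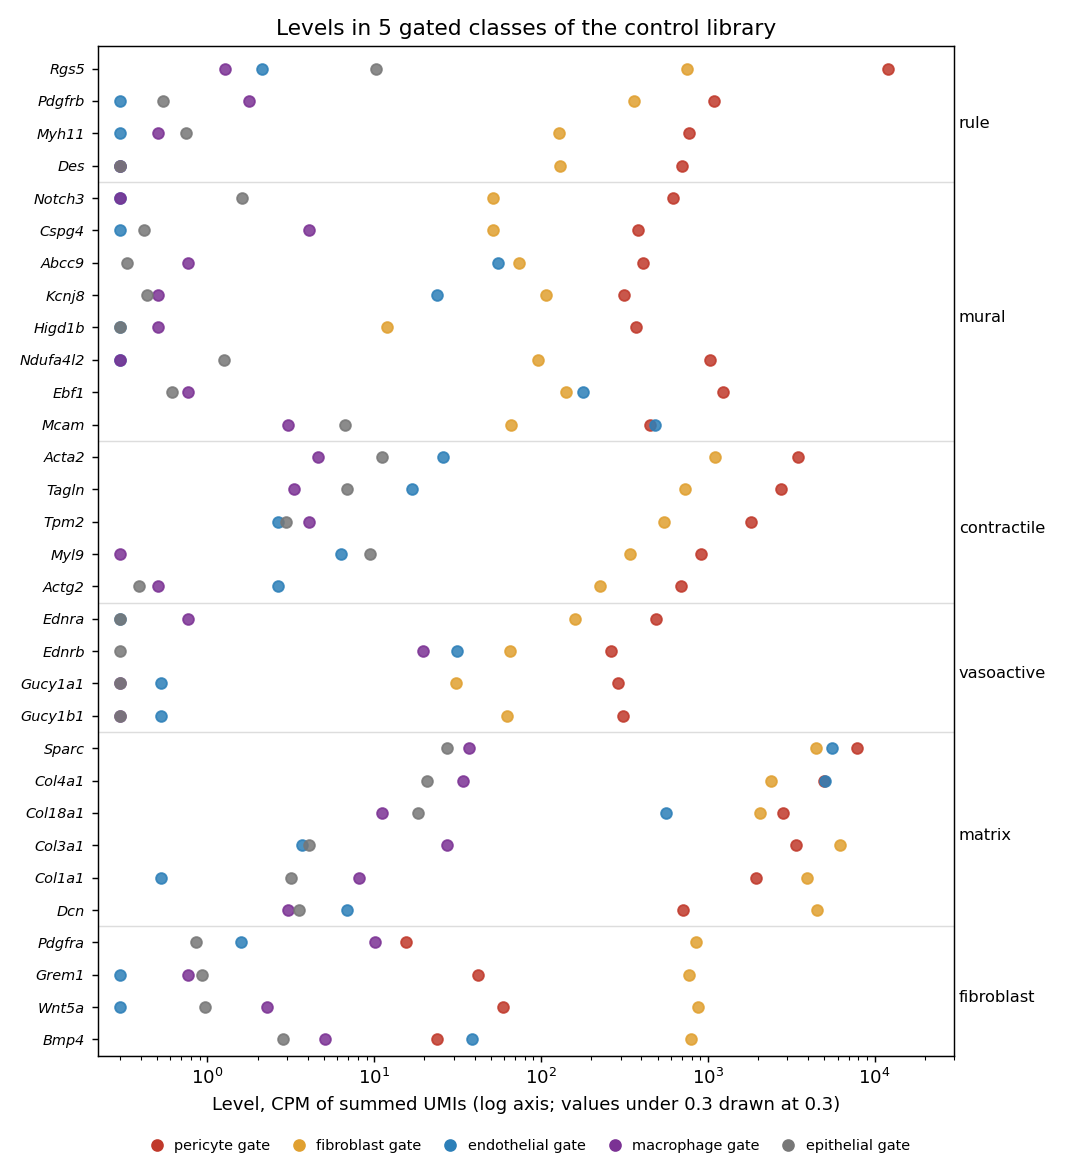
Levels in CPM of summed UMIs (log axis, values under 0.3 drawn at 0.3) of 31 genes in the 5 gated classes of the control library, grouped by role. Pericytes (red) lead for the rule, mural, contractile and vasoactive genes, share Mcam and Col4a1 with the endothelial gate, and lie below the fibroblast gate for Col3a1, Col1a1, Dcn, Pdgfra, Grem1, Wnt5a and Bmp4.

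The 20 genes with the highest ratio to the other control cells held 12 that were markers of the rule or of mural identity. Beside Rgs5, Des, Myh11 and the mural genes Higd1b, Aspn, Ndufa4l2, Notch3, Cox4i2, Aoc3, Rgs4, Cspg4 and Ebf1, they were the receptors and signalling genes Olfr558, Gucy1a1, Rgs7bp and Gjc1, the long noncoding RNA Meg3, the transcription factor Prrx1, the lipid carrier Fabp7 and the procollagen protease Adamts2. Fabp7, which is also a glial marker, was at 219 CPM in pericytes and 0.963 CPM in the others, and was found in 48.5% of pericytes. The 10 lowest ratios belonged to genes of red cells (Hba-a1, Hba-a2, Hbb-bs), macrophages (C1qa, C1qc) and 5 genes high in the epithelial gate (Ehf, Lypd8, Sbspon, Smim6, Kcnk1). Hba-a1 and Hba-a2 are near-identical copies, and reads could be split between them. Against the fibroblast gate the highest ratios beside Higd1b belonged to Galnt16, Kcnk3, Mnd1, Slc38a11, Vtn, Inpp4b, Slc7a2, Enpep and Sncg. The potassium channel gene Kcnk3 was at 121 CPM in pericytes and 4.75 CPM in the fibroblast gate.

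Contractile genes were high in the summed pericytes. Of 25 genes of the contractile apparatus, 23 reached 20 CPM and all 23 were at least 2-fold higher than in the other control cells, beside 17.9% of all genes tested. The median log2 ratio was 4.98 over the 25. Of the 23, 15 were higher and 0 lower than in the fibroblast gate, beside 8.75% and 9.95% of all genes tested. Acta2 (chr19:34241090-34255590, minus strand), the actin of vascular smooth muscle and myofibroblasts, was at 3477 CPM (3341 to 3617) in pericytes, 1106 CPM in the fibroblast gate and 41.0 CPM in the others. Tagln (chr9:45929619-45936058, minus strand), an actin-binding protein of smooth muscle, was at 2742, 733 and 26.7 CPM in the same classes. Pln, the calcium pump regulator phospholamban found in larger vessels, was at 0 UMIs, and Hrc at 12.7 CPM. Cnn1, which encodes calponin of differentiated smooth muscle, was at 124 CPM in pericytes but was present in 19.1% of them. The 4 pericytes without a UMI of Notch3, Abcc9, Kcnj8 and Higd1b held 37, 11, 5 and 3 of its 88 UMIs. They also held 73, 68, 45 and 8 of the 547 UMIs of Myh11, and 83, 21, 20 and 18 of the 494 of Actg2. The levels of these genes in pericytes thus include cells whose label is in doubt. Contractile levels without these 4 cells are not given, and their part in the list counts was not tested.

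The level of these genes differed widely from cell to cell. Summed UMIs of Acta2, Tagln, Actg2, Myl9 and Tpm2 were 0 per 10000 in the lowest pericyte, 55.6 at the median and 477 in the highest, with quartiles at 25.8 and 126. Acta2 alone ran over 0, 16.3 and 142 UMIs per 10000 at the lowest, the median and the highest, and Tagln over 0, 12.6 and 160. Actg2, the enteric smooth muscle actin, was at 695 CPM and had 0 UMIs in 25 pericytes, while 18 cells held 80.6% of its 494 UMIs. The quartiles thus lay well apart for the contractile sum, and the enteric actin was carried by a minority of cells.

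**Figure D3:**
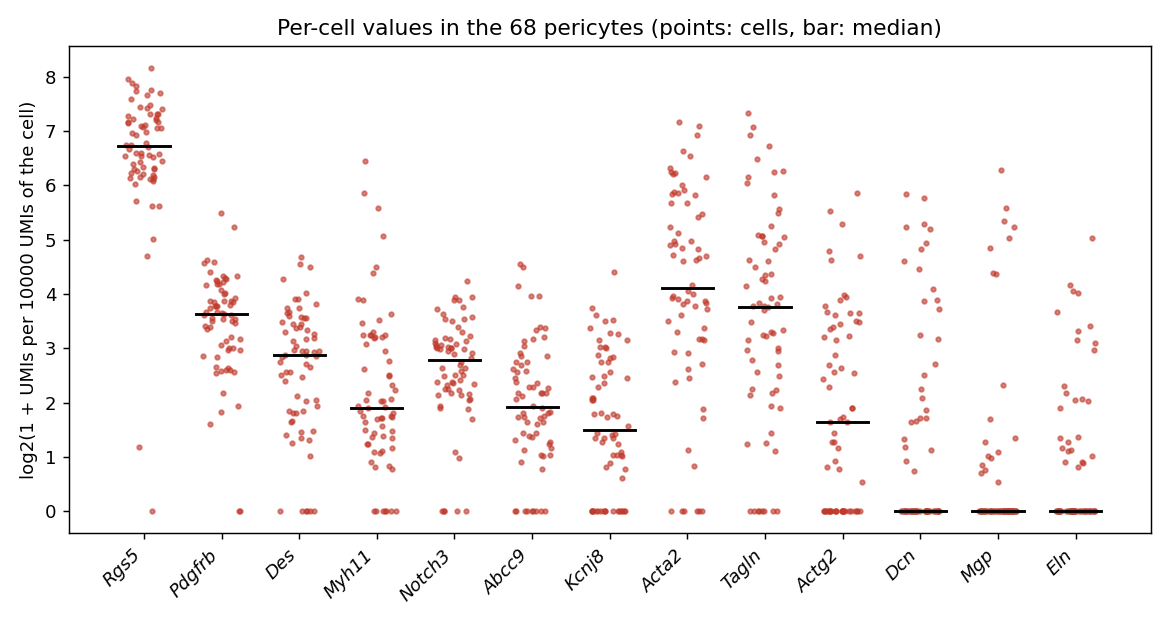
Values of 13 genes in each of the 68 pericytes, as log2 of 1 plus UMIs per 10000 UMIs of the cell (points: cells, bars: medians). Rgs5 is narrow apart from 2 cells near 0, Acta2 and Tagln are wide, and Dcn, Mgp and Eln have medians of 0 with a minority of high cells.

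A part of the contractile genes moved together across the 68 cells. Spearman's rho with Acta2 was 0.85 for Tagln, 0.88 for Actg2, 0.83 for Myl9 and 0.70 for Tpm2. These are descriptions over cells of 1 library that share depth and ambient RNA. The summed level of the contractile genes also rose with the depth of a cell (rho 0.39 with total UMIs). After thinning each cell to 2000 UMIs, rho of Acta2 was 0.72 with Tagln and 0.64 with Actg2. Myh11 went with them (rho 0.50 with Acta2), and Des did not (rho 0.05). Over the 171 pairs of 19 contractile genes found in at least 50% of cells the median rho was 0.23, and 28 pairs were negative. Members outside the block had a low rho with Acta2, such as Cald1 (0.19), Mrvi1 (0.05), Synpo2 (0.01), Tinagl1 (−0.01) and Sncg (−0.07).

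The channel genes ran the other way. Abcc9 and Kcnj8 encode the regulatory and the pore subunit of a potassium channel that ATP closes and that relaxes mural cells when open, and they are neighbours on chromosome 6 (chr6:142587862-142702315 and chr6:142564837-142571614, both on the minus strand). Abcc9 was at 408 CPM in pericytes, 74.1 CPM in the fibroblast gate and 3.72 CPM in the others, and Kcnj8 at 312, 107 and 3.93 CPM. Across pericytes Abcc9 had a rho of 0.57 with Kcnj8 and −0.49 with Acta2, and after thinning to 2000 UMIs these were 0.19 and −0.28. The sum of both channel genes had a rho of −0.54 with the contractile sum, −0.58 over the 61 cells with at least 5000 UMIs, and −0.47 after thinning to 2000 UMIs, and it had a rho of −0.09 with depth. In the 9 cells with over 200 contractile UMIs per 10000, the channel sum was at most 4.57 per 10000, against a median of 5.31 and a highest value of 34.9 over all 68 cells. All 4 pericytes without a UMI of Notch3, Abcc9, Kcnj8 and Higd1b were among these 9. Over the 63 pericytes with a UMI of Notch3, a set chosen after seeing the data, rho was −0.45 between the sums and −0.41 between Abcc9 and Acta2. Both sums are shares of the same total UMIs of a cell.

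**Figure D4:**
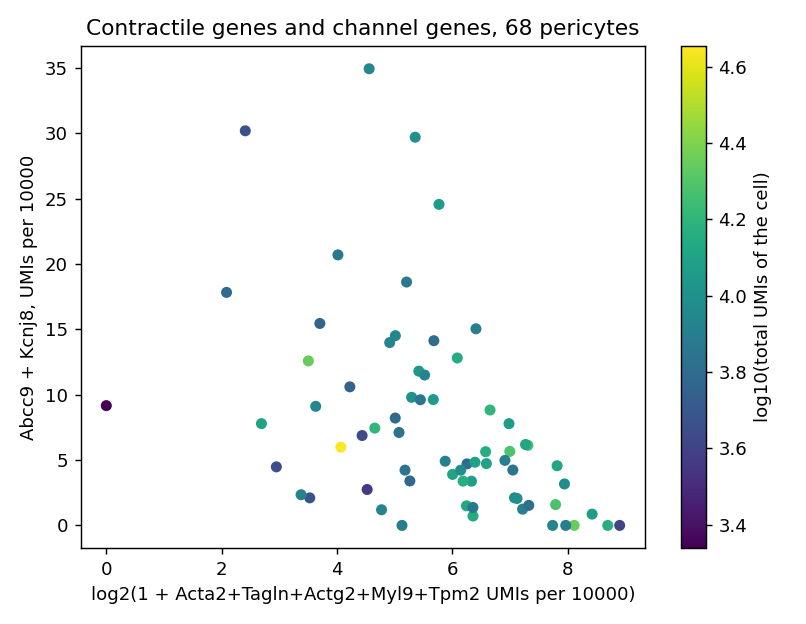
Summed Abcc9 and Kcnj8 UMIs per 10000 (y axis) against log2 of 1 plus summed contractile UMIs per 10000 (x axis) in the 68 pericytes, coloured by log10 of total UMIs. The 9 cells above 200 contractile UMIs per 10000, at the right, have channel sums of at most 4.57, while the highest channel sums, up to 34.9, are to the left of them.

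**Figure D5:**
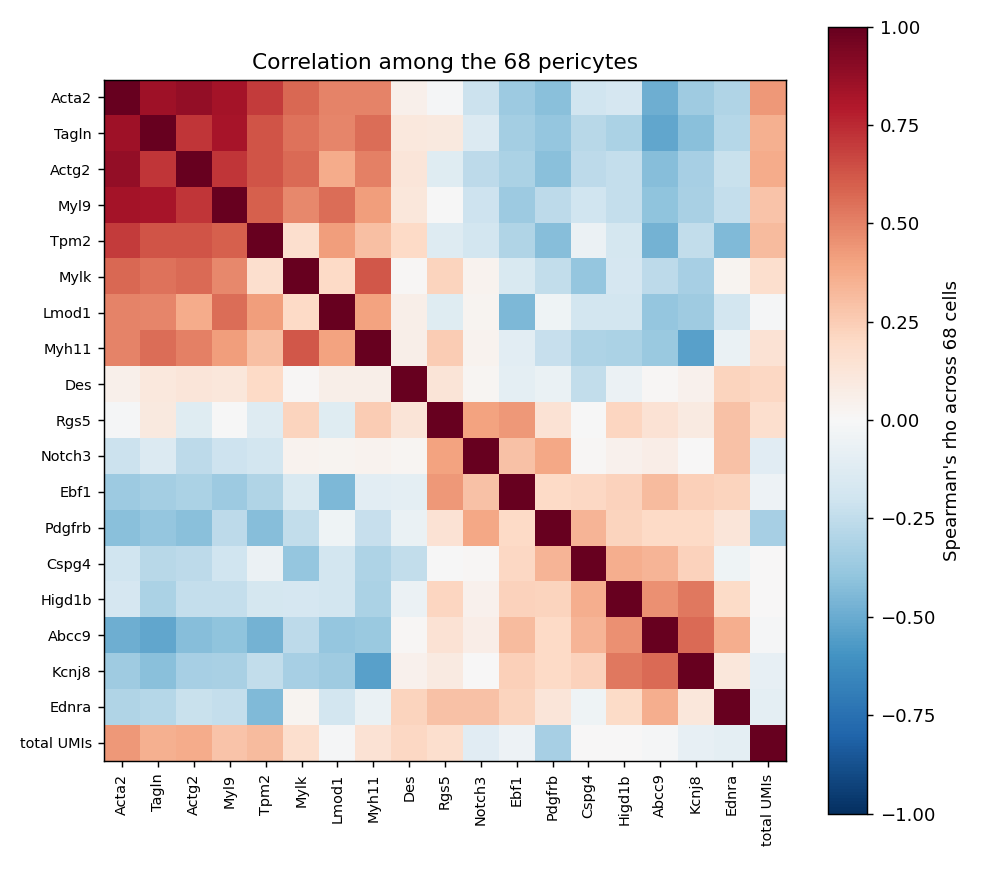
Spearman's rho between genes across the 68 pericytes, from −1 (blue) to 1 (red), with total UMIs in the last row and column. Acta2, Tagln, Actg2, Myl9 and Tpm2 form a block of positive values, and Higd1b, Abcc9 and Kcnj8 form another that is mostly negative against the first.

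The core promoters of Rgs5, Acta2 and Myl9 are shown because Rgs5 defined the cells, and Acta2 and Myl9 stand for the block of genes that moved together. They cover 250 bases upstream of the gene start, from RefSeq (GRCm38.p6), written 5′ to 3′ on the strand of the gene. The RefSeq start of Acta2 lies inside the longer GENCODE gene given above, so 217 of its 250 bases are within that gene. Capitals mark a match with no mismatch to the CArG box, the site of serum response factor, searched on both strands of a window of 300 bases, of which the last 50 follow the start.
Rgs5 chr1:169655251-169655500, plus strand: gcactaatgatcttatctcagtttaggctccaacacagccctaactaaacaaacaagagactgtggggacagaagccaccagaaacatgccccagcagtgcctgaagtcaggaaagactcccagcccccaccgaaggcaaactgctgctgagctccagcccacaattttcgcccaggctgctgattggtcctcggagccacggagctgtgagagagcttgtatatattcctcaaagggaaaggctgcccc
Acta2 chr19:34255374-34255623, minus strand: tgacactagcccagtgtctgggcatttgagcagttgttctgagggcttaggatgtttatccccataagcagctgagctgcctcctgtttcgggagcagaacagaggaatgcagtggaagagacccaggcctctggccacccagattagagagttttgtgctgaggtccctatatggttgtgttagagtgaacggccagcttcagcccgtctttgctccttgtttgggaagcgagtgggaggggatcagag
Myl9 chr2:156775214-156775463, plus strand: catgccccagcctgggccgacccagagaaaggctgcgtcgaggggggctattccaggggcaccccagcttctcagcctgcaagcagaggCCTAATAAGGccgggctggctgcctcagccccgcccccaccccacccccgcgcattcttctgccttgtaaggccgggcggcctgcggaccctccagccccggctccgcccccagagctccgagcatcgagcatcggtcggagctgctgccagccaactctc
The match in Myl9 spans bases −161 to −152 from the start, and the windows of Acta2 and Rgs5 held no match free of mismatches. With up to 1 base off the pattern, added after seeing the data, Acta2 held 2 matches, Myl9 2 and Rgs5 0, and 23.8% of all genes held at least 1. Among 21 contractile genes with a promoter in the table, 2 held a match (Myl9 and Myl6, 9.52%), against 488 of 27025 genes (1.81%). A match is a description of the letters and not of binding.

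Receptors and enzymes through which vessel tone is set were high in the summed pericytes. Of 29 genes of this list in the table, 22 reached 20 CPM. Of the 22, 21 were at least 2-fold higher and 1 lower than in the other control cells, beside 17.9% and 19.4% of all genes tested. Ednra, the endothelin receptor of contraction, had 0, 4.23 and 17.4 UMIs per 10000 at the lowest, the median and the highest, and was at 490 CPM in pericytes, 160 CPM in the fibroblast gate and 4.59 CPM in the others. Ednrb was at 263, 65.6 and 4.32 CPM, and was found in 48.5% of pericytes and 8.86% of macrophages.

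The nitric oxide receptor was measured through both of its subunits. Gucy1a1 and Gucy1b1 were at 291 and 310 CPM in pericytes, 30.9 and 62.7 CPM in the fibroblast gate, and 0.924 and 1.86 CPM in the others. Prkg1, the kinase that its product cyclic GMP activates, was at 77.4 CPM in pericytes and 0.482 CPM in the others. Pde5a, which breaks cyclic GMP down, was at 265 CPM in pericytes and 262 CPM in the fibroblast gate. The receptors of angiotensin (Agtr1a, 29.5 CPM), vasopressin (Avpr1a, 43.6 CPM), adrenaline (Adra2a, 122 CPM) and parathyroid hormone (Pth1r, 98.5 CPM) were each at least 2-fold higher in pericytes than in the other control cells. Olfr558, an olfactory receptor gene, was at 265 CPM in pericytes, 16.2 CPM in the fibroblast gate, 0 CPM in marker-poor fibroblasts and 0.495 CPM in the others. The prostaglandin receptor gene Ptger4 was the lower one, with 1.41 CPM in pericytes and 24.9 CPM in the others.

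Genes of the exchange between pericytes and endothelium were split by role. The ligand Pdgfb was at 16.9 CPM in pericytes and 262 CPM in the endothelial gate, where Pdgfrb was at 0 UMIs, while Pdgfa, the ligand of Pdgfra, was at 587 CPM in pericytes, 163 CPM in the fibroblast gate and 133 CPM in the others. Of 15 Notch genes, 9 reached 20 CPM and 6 were at least 2-fold higher and 0 lower than in the other control cells, beside 17.9% and 19.4% of all genes tested. The higher ones were Notch3, the ligand Jag1 (115 CPM in pericytes and 7.68 CPM in the others), the target genes Heyl (160 and 0.781 CPM), Hey1 (21.1 and 5.26 CPM) and Hey2 (38.0 and 0.0911 CPM), and the feedback gene Nrarp (33.8 and 6.68 CPM). The ligand Dll4 was at 8.44 CPM in pericytes and 181 CPM in the endothelial gate, and at 0 CPM without the mixed cells.

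Angiogenic ligands and receptors were mixed. Of 21, 12 reached 20 CPM, with 7 at least 2-fold higher and 3 lower than in the other control cells (4 lower without the mixed cells). Over all genes tested these shares were 17.9% and 19.4%. The median log2 ratio was 0.28 over the 21. Angpt2, the ligand that opposes Tie2 signalling, was at 127 CPM in pericytes, 411 CPM in the endothelial gate and 23.9 CPM in the other control cells, and was found in 63.2% of pericytes. Its partner Angpt1 was at 2.81 CPM in pericytes. Flt1, a VEGF receptor, was at 234 CPM in pericytes (204 CPM without the mixed cells), 899 CPM in the endothelial gate and 43.6 CPM in the others. Esam, an adhesion molecule of endothelial junctions, was at 291 CPM in pericytes and 588 CPM in the endothelial gate, and was found in 86.8% of pericytes and 2.53% of macrophages. Kdr, the main endothelial VEGF receptor, was at 0 CPM in pericytes without the mixed cells, against 867 CPM in the endothelial gate.

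Matrix genes of the basement membrane were nearly all high. Of 20, 19 reached 20 CPM, 17 were at least 2-fold higher and 1 lower (Lama3) than in the other control cells, beside 17.9% and 19.4% of all genes tested. The median log2 ratio was 3.28. Of the 19, 6 were higher and 5 lower than in the fibroblast gate, beside 8.75% and 9.95% of all genes tested. Col4a1, a chain of type IV collagen, had 9.99, 48.2 and 122 UMIs per 10000 at the lowest, the median and the highest, so no pericyte lacked it. Its level was 4963 CPM in pericytes, 5075 CPM in the endothelial gate, 2379 CPM in the fibroblast gate and 210 CPM over all other control cells. Col18a1, the parent of endostatin, was at 2813 CPM in pericytes, 559 CPM in the endothelial gate and 2048 CPM in the fibroblast gate. Sparc, a collagen-binding protein, was at 7848, 5523 and 4474 CPM in these classes.

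Interstitial matrix genes were high against the other control cells and often lower than in the fibroblast gate. Of 36, 32 reached 20 CPM against the other control cells, with 28 higher and 2 lower, beside 17.9% and 19.4% of all genes tested. Against the fibroblast gate, all 36 reached 20 CPM in one class or the other, with 5 higher and 13 lower, beside 8.75% and 9.95%. The 5 higher ones were Eln, Col5a3, Mmp11 and the proteases Adamts1 and Adamts4. Col3a1 was at 3366 CPM in pericytes and 6212 CPM in the fibroblast gate, a difference under 2-fold, and each of the 68 pericytes held it. Col1a1 was at 1954 CPM in pericytes and 3911 CPM in the fibroblast gate. Dcn, the proteoglycan decorin, was at 713 CPM in pericytes and 4507 CPM in the fibroblast gate, 6.32-fold lower (5.78 to 6.92). The rule compared the sum of these last genes with the markers, so their place below the fibroblast gate was part of the choice.

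A few matrix genes were carried by a minority of pericytes. Dcn was at 0 UMIs in 39 pericytes, while 14 cells with 10 or more UMIs held 467 of its 507. Mgp, matrix Gla protein, was at 0 in 49 pericytes, and 9 cells held 345 of its 355 UMIs. Eln, tropoelastin, was at 0 in 41 pericytes, and 9 cells held 79.4% of its 199 UMIs. Overlaps of the cells high in these genes are given as counts only. The overlap that unrelated genes would give was not computed, so neither sharing nor separation is read from them. Of 14 Dcn-high and 9 Mgp-high cells, 1 was shared, and the 9 Eln-high cells shared 2 with each of these groups. Of 9 Eln-high cells, 6 were among the 12 cells with 10 or more UMIs of Myh11 and 6 among the 18 with 10 or more of Actg2. A count of 10 UMIs is easier to reach in a deeper cell, and the median depth was 11194.5 UMIs in Dcn-high and 8603.5 in the other pericytes, 11012 in Mgp-high and 8578 in the others, and 13943 in Eln-high and 8517 in the others. The share that depth has in these groups was not tested. Epithelial cells also express Mgp (1190 CPM), and 16.5% of macrophages held a UMI of it against 27.9% of pericytes.

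Integrins, the receptors by which cells hold this matrix, also differed. Of 16, 11 reached 20 CPM, 9 were at least 2-fold higher and 2 lower than in the other control cells, beside 17.9% and 19.4% of all genes tested. Itga1, a collagen receptor subunit, was at 1207 CPM in pericytes and 28.4 CPM in the others, and Itga7, a laminin receptor subunit, at 78.8 and 0.898 CPM. Against the fibroblast gate Itga7 and Itga4 were higher and 5 of 11 integrins lower, beside 8.75% and 9.95% of all genes tested.

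Signals that gut fibroblasts send to epithelium were low in pericytes. Of 23 Wnt ligands, R-spondins and antagonists, 13 had 0 UMIs in pericytes, among them Rspo1, Rspo2 and Rspo3. A count of 0 alone shows no difference, since 1 UMI in the class is 1.41 CPM. Rspo3 was under 2-fold lower than in the other control cells (log2 ratio −0.63). None of the 10 at 20 CPM or more against the fibroblast gate was higher and 8 were lower, beside 8.75% and 9.95% of all genes. Wnt5a was at 59.1 CPM in pericytes and 871 CPM in the fibroblast gate. Grem1, a BMP antagonist, was at 42.2 CPM in pericytes and 769 CPM in the fibroblast gate, and its 30 UMIs in pericytes came from 4.41% of the cells. Bmp4 was at 23.9 and 789 CPM, and Bmp5 at 38.0 and 388 CPM. Of 12 Wnt target genes, 11 were at least 2-fold lower in pericytes than in the other control cells and 0 higher. The shares over all genes tested were 19.4% and 17.9%. Axin2, a feedback target of Wnt signalling, was at 11.3 CPM in pericytes, 25.7 CPM in the fibroblast gate and 337 CPM in the epithelial gate.

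TGF-beta and BMP genes followed no single direction. Of 33, 28 reached 20 CPM. Of the 28, 17 were higher and 4 lower than in the other control cells, beside 17.9% and 19.4% of all genes tested. Without the mixed cells 18 were higher and 4 lower. Against the fibroblast gate 4 of 30 were higher and 10 lower, beside 8.75% and 9.95%. Among those higher than in the fibroblast gate were the ligands Tgfb2 (280 CPM in pericytes and 114 CPM in the fibroblast gate) and Tgfb3 (49.2 and 16.2 CPM) and the BMP target Id4 (101 and 18.1 CPM). Tgfbr2, the type II receptor, was at 66.1 CPM in pericytes and 355 CPM in the fibroblast gate.

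Chemokines and cytokines were likewise divided. Of 29, 14 reached 20 CPM, and 5 were higher and 5 lower than in the other control cells, beside 17.9% and 19.4% of all genes tested. Against the fibroblast gate 3 of 18 were higher and 11 lower, beside 8.75% and 9.95%. The 3 higher were Ccl11, the eosinophil attractant eotaxin (212 CPM in pericytes and 85.5 CPM in the fibroblast gate), Il34, a ligand of the receptor Csf1r (177 and 74.6 CPM), and Il6 (73.2 and 15.2 CPM). Il6 was at 0 UMIs in 52 pericytes, and 1 cell held 14 of its 52 UMIs. Ccl11 was at 0 UMIs in 38 pericytes. Cxcl12 was at 7.04 CPM in pericytes, 169 CPM in the endothelial gate and 124 CPM in the fibroblast gate. Among the genes lowest against the fibroblast gate, the acute-phase gene Saa3 was at 2.81 CPM in pericytes and 5307 CPM in the fibroblast gate. Il1rl1, the receptor of interleukin 33, was at 8.44 and 1473 CPM, and the collagenase gene Mmp13 was at 0 UMIs in pericytes and at 1132 CPM in the fibroblast gate, at least 268-fold lower against a floor of 3 UMIs over the class.

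Transcripts of dividing cells came from few pericytes. Mki67 was at 56.3 CPM in pericytes and 92.5 CPM in the other control cells, and 64 of 68 pericytes had none. Its log2 ratio of −0.71 was −0.01 at a minimum of 10000 UMIs per cell and −0.09 after thinning to 2000 UMIs, so no difference in Mki67 is read from it. The 3 cells with 10 or more UMIs of Mki67 and Top2a together (4.41% of pericytes, 0.919 to 12.4%) held 391 of the 481 UMIs of the 26 G2 and M phase genes. Of those 26 genes, 20 reached 20 CPM, and 4 were lower and 0 higher in pericytes than in the other control cells, a share of lower genes near the 19.4% of all genes tested. Of 26 S phase genes, 5 of 14 were lower and 0 higher. Against the fibroblast gate, 5 of 13 G2 and M phase genes were higher and 0 lower, beside 8.75% of all genes higher. Against marker-poor fibroblasts 10 of 13 were higher and 0 lower, beside 11.1% of all genes higher. In both comparisons 0 of 8 S phase genes were higher and 0 lower.

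Immediate early genes, which tissue dissociation can induce, were listed together with heat shock genes. The list summed to 15131 CPM in pericytes, 12753 CPM in the endothelial, 11298 CPM in the macrophage, 10206 CPM in the fibroblast and 8977 CPM in the epithelial gate. Of these 24 genes, 22 reached 20 CPM, with 9 higher and 5 lower than in the other control cells. Over all genes tested the shares were 17.9% higher and 19.4% lower. Against the fibroblast gate 7 of 22 were higher and 2 lower, beside 8.75% and 9.95% of all genes tested. Fos was at 3072 CPM in pericytes, 1524 CPM in the fibroblast gate, 1963 CPM in the endothelial gate and 761 CPM in the epithelial gate. Egr1 was at 1272 CPM in pericytes and 629 CPM in the fibroblast gate. Hspa1a and Hspa1b are near-identical copies and are uncertain one by one.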

How the data were processed

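Single-cell RNA sequencing was done on 2 cultures, each 1 library. The authors deposited raw UMI counts per gene and barcode, with no normalization. Per the labels' protocols the 3′ kit was version 2 and reads were aligned to mm10, while Seurat 3.1.1 and Cell Ranger 2.1.1 stand in the submitters' processing notes. The control matrix header names software 3.1.0 and lists 6794880 barcodes and 31053 genes, against 737280 barcodes and 27998 genes for RSPO1-Fc. The barcode lists differ in length, so the kit version of the control library is uncertain despite the label. Kit, processing and condition cannot be told apart. Total counts were 89437327 UMIs for RSPO1-Fc and 91675581 for control. No column held a sample outside the series.

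Barcodes with at least 2000 UMIs and at most 20% mitochondrial UMIs were kept (2979 for RSPO1-Fc and 3143 for control, after removal of 164 and 321 by the second filter). Each was put in 1 of 5 gates by the highest gate sum of at least 5 UMIs. No doublet caller was run. Counts were summed per gate and scaled to CPM. A gene counted as higher or lower when it had at least 20 CPM in either class and the ratio (CPM + 1) was at least 2-fold, and the percentages beside counts are shares of all such genes. Sums have exact Poisson, ratios conditional exact binomial and shares Clopper-Pearson 95% intervals, all for counting error only. A count of 0 was given a limit of 3 counts in place of an interval. No count model was fitted, since each condition was 1 library. Spearman's rho used UMIs per 10000.

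The 68 cells, their markers and the gene lists were chosen with earlier results of these data known. The genes named were the 20 highest and 10 lowest ratios against the other control cells and the 10 highest and 10 lowest against the fibroblast gate (at least 50 CPM, and for the high ones a UMI in at least 25% of pericytes), up to 6 members of each list by level and 3 by lowest ratio, and a fixed set of markers. Other list members, some alternatives, the patchy genes and the low-Rgs5 cells were named after their values were seen. Alternatives covered the UMI and mitochondrial limits, the marker rule, scaling (TMM of edgeR 4.0.16 and size factors of DESeq2 1.42.0 in R 4.3.3, no tests), pseudocount, level filter, cell weighting, thinning and the cells compared. Python 3.11.15 with numpy 2.4.6, scipy 1.17.1, pandas 2.3.3 and matplotlib 3.10.9 was used, and the counting of calls was tested on simulated data. Gene coordinates are GRCm38.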

Additional observations from a re-analysis of the deposited data

Results flagged for a closer look

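Rgs5 was also found outside the cells analysed. The 55413 control barcodes with 101 to 500 UMIs held 756 UMIs of Rgs5 among 7150128, a level of 106 CPM (98.3 to 114), above the 0.420 CPM that 3 UMIs would give. The level was 11978 CPM in the pericytes and 29.7 CPM in the other control cells. Of the 321 control barcodes removed for more than 20% mitochondrial UMIs, 3 met the marker rule of pericytes, with mitochondrial shares between 23.5 and 37.3%.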

How the results depend on the processing

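No paired analysis was possible because each condition was 1 library. With a minimum of 10000 UMIs, 27 pericytes were found in place of 68. Against the other control cells, 2558 genes were higher and 3878 lower with no filter on level, and 896 and 718 at 50 CPM or more. Against the fibroblast gate, the counts were 1645 higher and 2345 lower with no filter, 369 and 407 at 50 CPM or more, and 1257 and 1421 after thinning each cell to 2000 UMIs. The cause was not tested. Apart from counts, 389 of 480 values over 30 results and 16 alternatives (1 of them chosen after seeing the data) moved less than their error, and 91 moved further. The level filters and the marker sum limit of 10 could not move these values. They changed only counts or kept the same 68 cells. Where a gene had 0 UMIs in pericytes, the error was too wide for any move to exceed it. This holds for Rspo3 (−2.69 to −0.04) and the Wnt ligand list (−2.13 to −0.04). The log2 ratio to the other control cells stayed between 7.95 and 10.05 for Rgs5 and between 5.37 and 8.16 for Acta2. The list medians for angiogenic (−0.86 to 1.89), Notch (−0.17 to 1.28), PDGF (−0.09 to 1.67) and chemokine genes (−1.56 to 1.07) changed sign between alternatives. Leaving out every cell with 5 or more UMIs of another gate left 0 pericytes and gave no value, since each held fibroblast gate UMIs. Depth limits genes at a few CPM, where 1 UMI in the class is 1.41 CPM.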

Other observations

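Hox genes, which keep the position of a cell along the body axis, were not part of the lists above. Of 44 entries whose symbol begins with Hox, some of them antisense transcripts, 8 reached 20 CPM in pericytes and 24 were at 0 UMIs. The 8 include the antisense transcript Hoxb3os (22.5 CPM). Hoxb2 was at 70.4 CPM in pericytes, 13.3 CPM in the fibroblast gate and 16.9 CPM in the endothelial gate. Hoxb4 was at 36.6 CPM in pericytes, 4.75 CPM in the fibroblast gate and 55.6 CPM in the endothelial gate. Both were under 1 CPM in the epithelial gate. Hoxa9 was at 60.5 CPM in pericytes and 151 CPM in the epithelial gate, and Hoxa10 at 59.1 and 115 CPM. Hoxa13, a gene of the hind end of the gut, was at 25.3 CPM in pericytes, 40.4 CPM in the fibroblast gate and 41.7 CPM in the epithelial gate.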
